A study of Homo sapiens with 36 samples.

Results

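Respiratory complex I was followed through the genes whose names start with NDUF, the prefix given to its nuclear-encoded subunits and assembly factors. Of 21950 genes listed, 47 had such a name without a hyphen, and 46 of them reached a mean of 1 FPKM (fragments per kilobase of gene, scaled to the fragments mapped in the library) and were tested. The remaining one, the pseudogene NDUFAF4P1, had a mean of 0.331 FPKM. By role the 46 tested genes are 7 core subunits and 9 accessory subunits of the peripheral arm, 20 accessory subunits of the membrane arm, NDUFAB1, which sits in both arms, 7 assembly factors, and the pair NDUFA4 and NDUFA4L2. The cells were K562, a human chronic myelogenous leukaemia line with erythroid features, and the labels name no treatment other than oxygen. Oxygen was set to 21%, 5% or 1%, and cells were taken after 6 h, 24 h, 3 d and 6 d, with a passage at 3 d, which gave 12 groups of 3 polyA RNA libraries. Each oxygen level had its own incubator, so oxygen and incubator cannot be told apart. The labels do not say whether replicates were separate cultures, so each p-value reflects library-to-library spread alone, which may be technical.

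Complex I takes electrons from NADH, hands them along a chain of iron-sulfur clusters to ubiquinone, and pumps protons across the inner mitochondrial membrane. Its peripheral arm, in the matrix, holds the flavin and all the clusters, and its membrane arm holds the pumps. The pumping subunits themselves are encoded by mitochondrial DNA and do not carry the NDUF prefix, so they are not covered here. Accessory subunits surround the conserved core, and assembly factors build the complex in modules and then leave it. NDUFA4 was named as a complex I subunit and is now placed with cytochrome c oxidase, complex IV, and its paralog NDUFA4L2 is a known target of the hypoxia-inducible factors (HIF).

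The 250 bases upstream of the transcription start are shown for 4 genes that took different courses: NDUFA4L2, the one member that was higher in 1% oxygen at both 3 d and 6 d, and NDUFV1, NDUFA3 and NDUFB1, which were among the members with the largest falls at 3 d or 24 h. Sequences are from RefSeq on GRCh38.p14, and 40 of the 47 members were matched by symbol or synonym. NDUFA4L2 is listed there as COXFA4L2. Capitals mark the HIF core motif (ACGTG or GCGTG, or either one read on the other strand), except in NDUFA3, where they mark the motif of the respiratory-gene activator NRF1 (GCGCA, any base, then GCGC), which there overlaps the HIF core letters.
NDUFA4L2, chr12:57240763-57241012, minus strand: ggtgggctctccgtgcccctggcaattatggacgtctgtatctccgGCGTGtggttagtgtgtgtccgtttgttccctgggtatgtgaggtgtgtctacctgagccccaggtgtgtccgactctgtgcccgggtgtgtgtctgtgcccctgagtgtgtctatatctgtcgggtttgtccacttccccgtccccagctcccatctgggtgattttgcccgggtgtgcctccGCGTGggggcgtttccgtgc
NDUFV1, chr11:67606686-67606935, plus strand: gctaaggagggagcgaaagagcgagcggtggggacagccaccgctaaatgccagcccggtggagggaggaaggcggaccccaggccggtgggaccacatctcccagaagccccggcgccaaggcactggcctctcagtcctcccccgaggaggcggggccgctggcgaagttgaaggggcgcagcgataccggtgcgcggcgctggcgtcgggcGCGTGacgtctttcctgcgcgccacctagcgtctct
NDUFA3, chr19:54102605-54102854, plus strand: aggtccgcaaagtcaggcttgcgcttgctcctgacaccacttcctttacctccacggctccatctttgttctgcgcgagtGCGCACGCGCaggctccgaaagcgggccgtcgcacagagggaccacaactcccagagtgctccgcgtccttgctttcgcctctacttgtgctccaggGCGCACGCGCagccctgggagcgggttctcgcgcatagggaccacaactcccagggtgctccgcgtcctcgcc
NDUFB1, chr14:92121707-92121956, minus strand: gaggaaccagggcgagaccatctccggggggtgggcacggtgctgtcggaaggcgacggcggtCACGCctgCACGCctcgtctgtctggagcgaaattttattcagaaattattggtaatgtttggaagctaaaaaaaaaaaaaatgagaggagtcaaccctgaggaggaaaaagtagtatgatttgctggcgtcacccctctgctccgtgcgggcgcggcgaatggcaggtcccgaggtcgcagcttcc

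NDUFA4L2 held 2 HIF core matches in the window shown, one of 2 start-site windows listed for it, NDUFV1 held 1, NDUFA3 held 2 and NDUFB1 held 2. These letters are common: 43.2% of all 35116 such windows hold at least 1 match, against 31 of the 51 windows of the matched members (60.8%). The NRF1 motif was found in 5 of 51 member windows (9.8%, against 5.1% of all windows), those of NDUFA3, NDUFA9, NDUFA11, NDUFA12 and NDUFB4. The ETS-family motif CCGGAAG was found in 6 of 51 (11.8%, against 8.5%), those of NDUFA1, NDUFA13, NDUFAF4, NDUFB7, NDUFS1 and NDUFS3. Both strands were searched. A match is a run of letters and not a measured binding site.

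The identity of the cells and the oxygen treatment were checked first. All 10 erythroid and K562 marker genes were present, from a mean of 7.36 FPKM for LMO2 to 5207 for HBZ, while COL1A2 (4.11 FPKM) was the 1 of 5 fibroblast genes and CD3D (119 FPKM) the 1 of 5 lymphocyte genes to reach the 1 FPKM minimum. In 1% oxygen 8 of 8 known hypoxia-induced genes rose at 24 h, 3 d and 6 d, with a median log2 difference of 1.49 at 24 h (1.53 without replicate 3 of the control). In 5% oxygen 4 of 8 rose at 24 h (median 0.44), and 8 of 8 at 3 d and 6 d. At 6 h 1 of 8 rose in 1% oxygen and 0 of 8 in 5%. Set against each other at 24 h, 1% oxygen was higher than 5% for 8 of 8 (median 0.99). The files give no counts; depth relative to the first library, read from the steps in weakly expressed genes, spanned 0.486 to 1.49 over 35 libraries. Replicate 3 of 1% oxygen at 3 d was shallow, with 7220 genes above 0 (14512 to 19543 elsewhere) and 435 of 3699 well-expressed genes at 0 (at most 7 elsewhere). It listed 6 of the 46 members at 0 and was left out of the fit. Replicate 3 of 21% oxygen at 24 h also stood apart: its FPKM total of 1171415 was the highest of all, and its complex I genes summed to 26260 FPKM, against 13720 and 17150 in the other replicates of its group. It was kept, and results against the 24 h control are given with and without it.

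**Figure D1:**
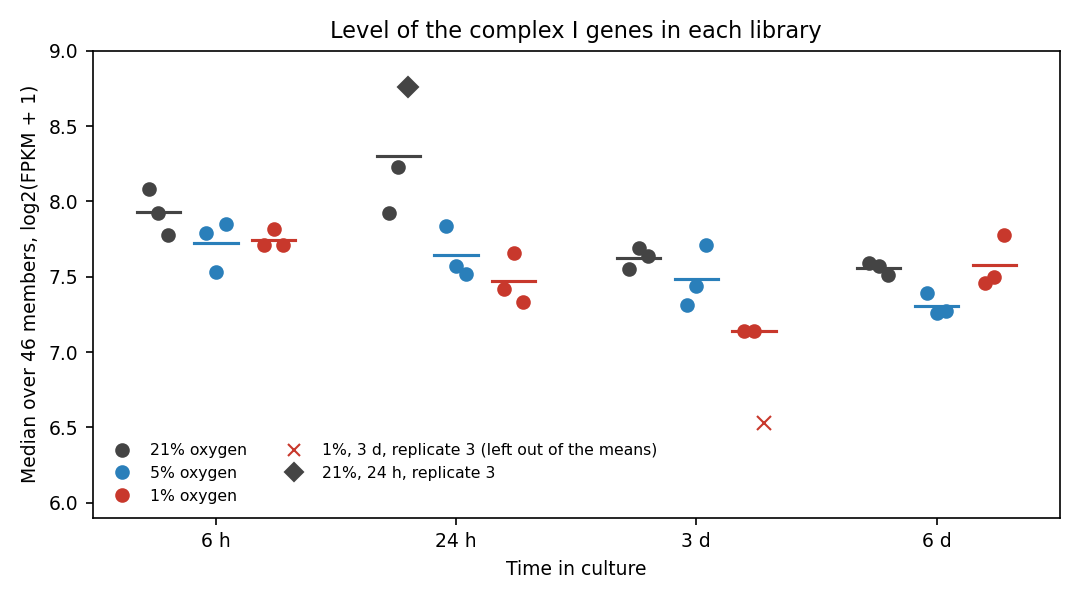
Median over the 46 tested complex I genes, as log2(FPKM + 1), in each of the 36 libraries, by time (x axis) and oxygen level (colour), with group means as bars. The lowest group mean is that of 1% oxygen at 3 d (7.14 with the shallow library, drawn as a cross at 6.53, left out), and replicate 3 of 21% oxygen at 24 h (diamond, 8.76) is the highest library.

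Complex I genes are strongly expressed in K562, and their levels span a wide range. Over 35 libraries the mean was highest for NDUFA1, a small membrane-arm subunit (1105 FPKM, 791 to 3249), NDUFS5 (941 FPKM) and NDUFA13 (752 FPKM). Among those tested it was lowest for NDUFA4L2 (1.58 FPKM), and for the assembly factors NDUFAF5 (8.02 FPKM), which hydroxylates an arginine of NDUFS7, and NDUFAF7 (11.04 FPKM), an arginine methyltransferase. Per length, assembly factors were scarcer than subunits, with a median level of 34.2 FPKM against 239 for the core subunits, 178 for the peripheral-arm accessory subunits and 235 for the membrane-arm accessory subunits. Summed, the members made up 1.91% ± 0.0723 (SD, n = 3) of all FPKM in 21% oxygen at 6 h and 1.74% ± 0.0819 (n = 3) in 1%. At 24 h the share was 1.97% ± 0.247 (n = 3) in 21% oxygen, with single libraries at 1.76%, 1.9% and 2.24%, and 1.64% ± 0.0656 (n = 3) in 1%. At 3 d it was 1.65% ± 0.0306 (n = 3) in 21% oxygen and 1.2% ± 0.0283 (n = 2) in 1%. At 6 d it was 1.45% ± 0.24 (n = 3) in 21% oxygen and 1.43% ± 0.0781 (n = 3) in 1%, a difference within the spread of the controls. In bulk RNA a lower value can be fewer cells that express a gene or less RNA per cell, and these cannot be told apart.

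At 6 h few genes of any kind, and 1 complex I gene, passed the test between oxygen levels. With limma's moderated test on log2(FPKM + 1) and Benjamini-Hochberg adjustment over 10586 genes, used for all p-values below, 0 of 46 members passed an adjusted p of 0.05 in 1% against 21% oxygen (0.0945% of all genes did), and 4 of 46 had an unadjusted p under 0.05, against 10.9% of all genes. In 5% against 21% oxygen 0 of 46 passed (0% of all genes), with 8 at an unadjusted p under 0.05 (9.7% of all genes). The members' median log2 differences were -0.12 and -0.20, and those of all genes 0.05 and 0.00. Both counts were also 0 under each alternative that was run. Between 1% and 5% oxygen 1 of 46 passed, upward (1.14% of all genes were higher and 0.123% lower): NDUFS1, the largest core subunit, at 51.0, 46.8 and 54.1 FPKM in 1% oxygen and 40.0, 38.04 and 41.9 in 5%. The groups did not overlap (log2 difference 0.33, SE 0.0738, adjusted p = 0.0276), and the call was lost without replicate 1 or 2 of 5% oxygen or replicate 1 or 3 of 1% oxygen.

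At 24 h most complex I genes were lower in both reduced oxygen levels than in 21% oxygen. In 1% oxygen 41 of 46 members fell (22.1% of all genes did) and 1 rose (16.6% of all genes), with a median log2 difference of -0.65 against 0.00 for all genes. In 5% oxygen 39 of 46 fell (18.7% of all genes), none rose (9.53% of all genes), and the median was -0.62 against -0.03. Set against each other, 1% and 5% oxygen, which share no control library, gave 0 of 46 members past the threshold (2.94% of all genes), 6 at an unadjusted p under 0.05 (15.8% of all genes), and a median of -0.05. The counts against 21% oxygen depend on the control libraries and on the scaling. The shares of all genes given above are those of the main fit and do not apply to the counts that follow. Without replicate 3 of 21% oxygen, 34 members fell in 1% oxygen and none rose (median -0.43), and 19 fell in 5% oxygen (median -0.37). With each library rescaled to a common FPKM total, which moved the median of all genes to 0.39 and 0.36, 19 members fell and 3 rose in 1% oxygen (median -0.19) and 9 fell and 5 rose in 5% oxygen (median -0.17). With a fit to the 6 libraries compared alone, 10 fell and 1 rose in 1% oxygen, and 0 of 46 passed in 5% oxygen.

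Of the 20 accessory subunits of the membrane arm 19 fell in 1% oxygen at 24 h, with a median of -0.79, and NDUFB10 did not pass (-0.24, adjusted p = 0.0987; -0.07 without replicate 3 of 21% oxygen). Without replicate 3 of 21% oxygen 18 fell and the median was -0.54, with a common FPKM total 13 fell (-0.33), and under quantile normalization 14 fell (-0.30). NDUFB1, one of the smallest subunits, was at 146, 250 and 494 FPKM in 21% oxygen and 120, 133 and 85.2 in 1%. All 3 libraries of 1% oxygen lay below all 3 controls, although the controls themselves spread widely (log2 difference -1.23, SE 0.300, adjusted p = 0.00198; -0.78 without replicate 3). NDUFA3, another small membrane-arm subunit, was at 182, 293 and 628 FPKM in 21% oxygen and 144, 152 and 128 in 1% (-1.19, SE 0.306, adjusted p = 0.00318). The ranges were again separate, but the call did not survive without replicate 3 (-0.71).

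All 9 peripheral-arm accessory subunits fell in 1% oxygen at 24 h (median -0.62), among them NDUFS6, a zinc-binding subunit (-0.84, SE 0.165; -0.54 without replicate 3 of 21% oxygen). Without that library 7 of 9 fell, with a common FPKM total 2 of 9 (median -0.16), and under quantile normalization 4 of 9 (median -0.27). NDUFAB1, the mitochondrial acyl carrier protein, which also serves fatty acid synthesis, fell (-0.64), and still passed without replicate 3 (-0.42), but not with a common FPKM total (-0.18) or quantile normalization (-0.09). Of the core subunits 5 of 7 fell, with a median of -0.32, and 3 of 7 fell without replicate 3. With a common FPKM total none of the 7 fell and 2 rose (median 0.14). Under quantile normalization none fell and 1, NDUFV2, rose (0.19, adjusted p = 0.00602), with a median of 0.05. After a correction for transcript length within each library 3 of 7 fell and none rose (median -0.11). NDUFV1, which binds NADH and the flavin, was at 238, 232 and 306 FPKM in 21% oxygen and 213, 204 and 199 in 1%. Every library of 1% oxygen was below every control (-0.32, SE 0.0834, adjusted p = 0.00356; -0.19 and not past the threshold without replicate 3). NDUFS1 did not pass (-0.13, adjusted p = 0.177; -0.10 without replicate 3). Of the 42 members that passed in 1% oxygen at 24 h, 8 turned sign with at least one other scaling: the core subunits NDUFV1, NDUFV2 and NDUFS3, the accessory subunits NDUFA5, NDUFA9 and NDUFA10, and the assembly factors NDUFAF1 and NDUFAF5. In 5% oxygen 7 of 39 did, and no member that passed at another time turned. With a common FPKM total the NDUFS1 difference was 0.33.

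Among the assembly factors at 24 h, 5 of 7 fell and NDUFAF6 rose in 1% oxygen (median -0.43). Without replicate 3 of 21% oxygen 4 fell (-0.31), with a common FPKM total 3 fell and 1 rose (0.02), and under quantile normalization 6 fell and 1 rose (-0.50). NDUFAF2, a paralog of the subunit NDUFA12 that acts late in assembly, was at 202, 272 and 474 FPKM in 21% oxygen and 143, 153 and 121 in 1%. The groups were separate (-1.09, SE 0.195, adjusted p = 0.000145; -0.76 and still past the threshold without replicate 3). NDUFAF6 was at 20.1, 17.6 and 14.8 FPKM in 21% oxygen and 28.9, 27.1 and 27.9 in 1%. It was the 1 member that rose (0.66, SE 0.185, adjusted p = 0.00642), and without replicate 3 it no longer passed (0.55). NDUFA4 also fell (-0.82, SE 0.158, adjusted p = 0.000283; -0.57 and still past the threshold without replicate 3).

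The 24 h differences went with transcript length, among all genes as well as among the members. Of the 759 tested genes with transcripts under 1000 nt, 50.1% fell in 1% oxygen, with a median log2 difference of -0.39, and 7.13% of the 2835 genes of 4000 nt and more fell, with a median of 0.17. Without replicate 3 of 21% oxygen these shares were 37.5% and 5.19%, with medians of -0.26 and 0.09. The members are short: 25 of the 45 with a known length were under 1000 nt, and these had a median of -0.72 (-0.46 without that library). Across the 45 members the Spearman correlation of length with the 24 h difference in 1% against 21% oxygen was 0.51 (0.38 without that library). At 3 d it was 0.17 in 1% against 21% oxygen, but 0.51 in 1% against 5% oxygen. In the latter the median of all genes was -0.19 under 1000 nt and 0.24 at 4000 nt and more. These correlations are given as descriptions over genes that share the same libraries. The members are also abundant, and of 1145 genes at 100 FPKM and more, 77.0% fell at 24 h (median -0.38), against 34 of 35 members in that range (median -0.71). Without that library 59.9% of these genes (median -0.28) and 29 of 35 members (median -0.44) fell. In 5% oxygen at 24 h 74.4% of these abundant genes fell (median -0.36), against 33 of 35 members (median -0.67). Without that library 40.6% (median -0.25) and 17 of 35 members (median -0.41) fell in 5% oxygen. Of the genes under 1000 nt 53.4% fell in 5% oxygen, and 28% without that library. After a correction for length within each library, 32 members fell and 2 rose in 1% oxygen at 24 h, with a median of -0.31. The part of length and level in the falls was not tested beyond these values.

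**Figure D2:**
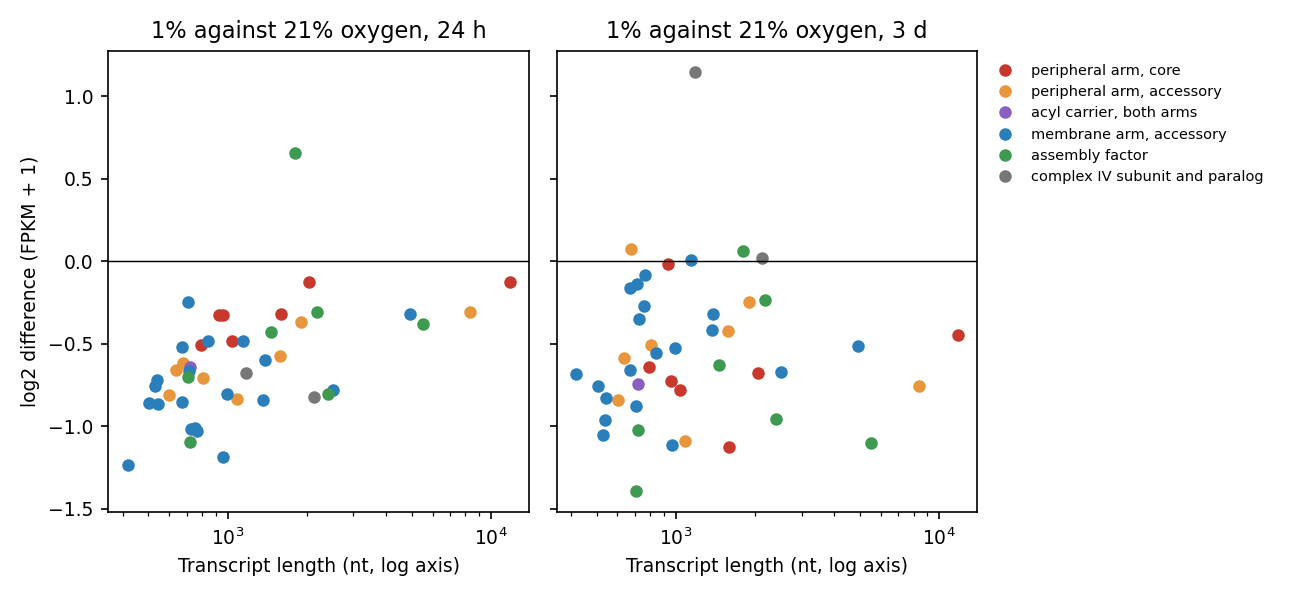
log2 difference of each complex I gene between 1% and 21% oxygen at 24 h (left) and 3 d (right) against transcript length in nucleotides on a log axis, coloured by role (45 genes with a known length). At 24 h shorter transcripts tend to lie lower (Spearman correlation 0.51), and at 3 d this relation is weaker (0.17).

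At 3 d in 1% oxygen most members were lower than in 21% oxygen, in every role but the NDUFA4 pair. Of 46 members 30 fell (28.6% of all genes did) and 1, NDUFA4L2, rose (25.1% of all genes), with a median of -0.61 against -0.02 for all genes. The 1% group here holds 2 libraries. With the shallow replicate 3 included, 33 fell, 27 of the 31 calls were shared, and the medians were -0.79 and -0.32. Under quantile normalization 28 fell and 5 rose (median -0.37), after the length correction 28 fell and 5 rose (median -0.42), and with a common FPKM total 30 fell and 1 rose (median -0.55). In the main fit 58.2% of the 1145 genes at 100 FPKM and more fell (median -0.41), against 22 of 35 members in that range (median -0.64). RNAs retained in the nucleus, whose mean log2 level was 3.21 to 3.90 in all other groups, were at 4.33, 4.01 and 4.37 in the 3 libraries of 1% oxygen at 3 d, and their part in the falls was not tested. They did not move as one: of 6 tested, 3 were higher and 1 lower than in 21% oxygen (log2 differences -0.45 to 2.34). CD3D (1.71) and COL1A2 (0.59), the one lymphocyte and the one fibroblast gene tested, were also higher in 1% oxygen at 3 d. The summed level of all 5 lymphocyte genes was 318.9 to 323.8 FPKM, against 93.59 to 105.5 in the control, and that of all 5 fibroblast genes was 9.812 to 9.924 FPKM against 4.936 to 5.686, where 1 of the 5 was at 0 in every library. Their part was not tested either.

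Of the 7 core subunits 6 fell at 3 d (median -0.68). NDUFV1 was at 217, 212 and 224 FPKM in 21% oxygen, 152, 147 and 149 in 5%, and 91.0 and 108 in 1% (33.9 in the shallow library). The 3 oxygen levels did not overlap, and the values stood in the order of oxygen. Its log2 difference was -1.12 in 1% oxygen (SE 0.0932, adjusted p = 5.69e-11) and -0.54 in 5% (SE 0.0834, adjusted p = 5.59e-06). NDUFV2, its neighbour in the NADH-binding module, was at 584, 608 and 645 FPKM in 21% oxygen and 559 and 656 in 1%. These overlapped, and NDUFV2 did not pass (-0.01, SE 0.108, adjusted p = 0.922). NDUFS7, which carries the last cluster before ubiquinone, was at 381, 381 and 422 FPKM in 21% oxygen and 204 and 256 in 1%, with no overlap.

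Of the accessory subunits, 6 of 9 in the peripheral arm (median -0.51) and 12 of 20 in the membrane arm (median -0.54) fell in 1% oxygen at 3 d. NDUFS6 was at 451, 475 and 457 FPKM in 21% oxygen and 193 and 242 in 1%, which is 0.471 of the control level on the log2(FPKM + 1) scale. The groups were separate (-1.09, SE 0.185, adjusted p = 1.47e-05). NDUFB7 (-1.05, SE 0.194, adjusted p = 4.4e-05) and NDUFA3 (-1.12, SE 0.342, adjusted p = 0.00724) fell as well. NDUFB1, which had the largest fall at 24 h, did not pass at 3 d (-0.69, SE 0.335, adjusted p = 0.0858), and neither did NDUFA1 (-0.08), NDUFB5 (0.01) or NDUFS4 (0.08).

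Assembly factors had the largest median fall at 3 d, -0.95, with 5 of 7 past the threshold. NDUFAF3, which works with NDUFAF4 on the ubiquinone-binding module, was at 66.0, 57.8 and 66.6 FPKM in 21% oxygen, 35.5, 36.7 and 36.5 in 5%, and 21.8 and 25.3 in 1%. The shallow library, at 22.4, fell in the range of the 2 others, and no oxygen levels overlapped. Its log2 difference in 1% oxygen was -1.40 (SE 0.129, adjusted p = 4.99e-10), the largest fall of any member in any comparison with 21% oxygen, and in 5% it was -0.79 (SE 0.116). NDUFAF5 was at 8.86, 9.73 and 10.3 FPKM in 21% oxygen, 5.13, 4.19 and 4.04 in 5%, and 4.01 and 3.91 in 1%. The control lay above both, whereas 5% and 1% oxygen differed little (-0.13, SE 0.158, adjusted p = 0.567). NDUFAF2 fell by 1.02 and NDUFAF4 by 0.95 on the log2 scale, whereas NDUFAF6 (0.07) and NDUFAF7 (-0.23) did not pass.

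Complex I assembly genes without the NDUF prefix fell too. Of 14 measured, 12 fell in 1% oxygen at 3 d, with a median of -0.83, and 10 fell at 24 h, with a median of -0.38. The 24 h count depends on the scaling. With a common FPKM total 1 fell and 3 rose (median 0.08), and under quantile normalization 8 fell (median -0.24). Without replicate 3 of 21% oxygen 7 fell (median -0.25). Those that work with NDUFAF1 on the membrane arm fell at 3 d, ACAD9 by 1.02, TMEM126B by 0.99, COA1 by 1.10 and ECSIT by 0.67 on the log2 scale. CHCHD4, which imports and oxidises proteins of the intermembrane space, fell by 1.15, and its partner AIFM1 by 1.00. NUBPL, which inserts iron-sulfur clusters into complex I, stood at 0.11 and did not pass. Of 42 nuclear genes of complexes II to V, 23 fell at 3 d (median -0.41), and of 76 genes of the mitochondrial ribosome 68 fell and 2 rose (median -0.72). At 24 h those lists gave 39 falls of 42 (median -0.70) and 70 of 76 (median -0.46). Without replicate 3 of 21% oxygen they gave 33 (median -0.46) and 56 (median -0.35). With a common FPKM total 19 fell and 5 rose (median -0.24) in the first, and 14 fell and 5 rose (median 0.00) in the second. Under quantile normalization 19 fell and 7 rose (median -0.15) in the first, and 40 fell and 4 rose (median -0.20) in the second. After the length correction 59 genes of the mitochondrial ribosome fell and 4 rose (median -0.27).

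**Figure D3:**
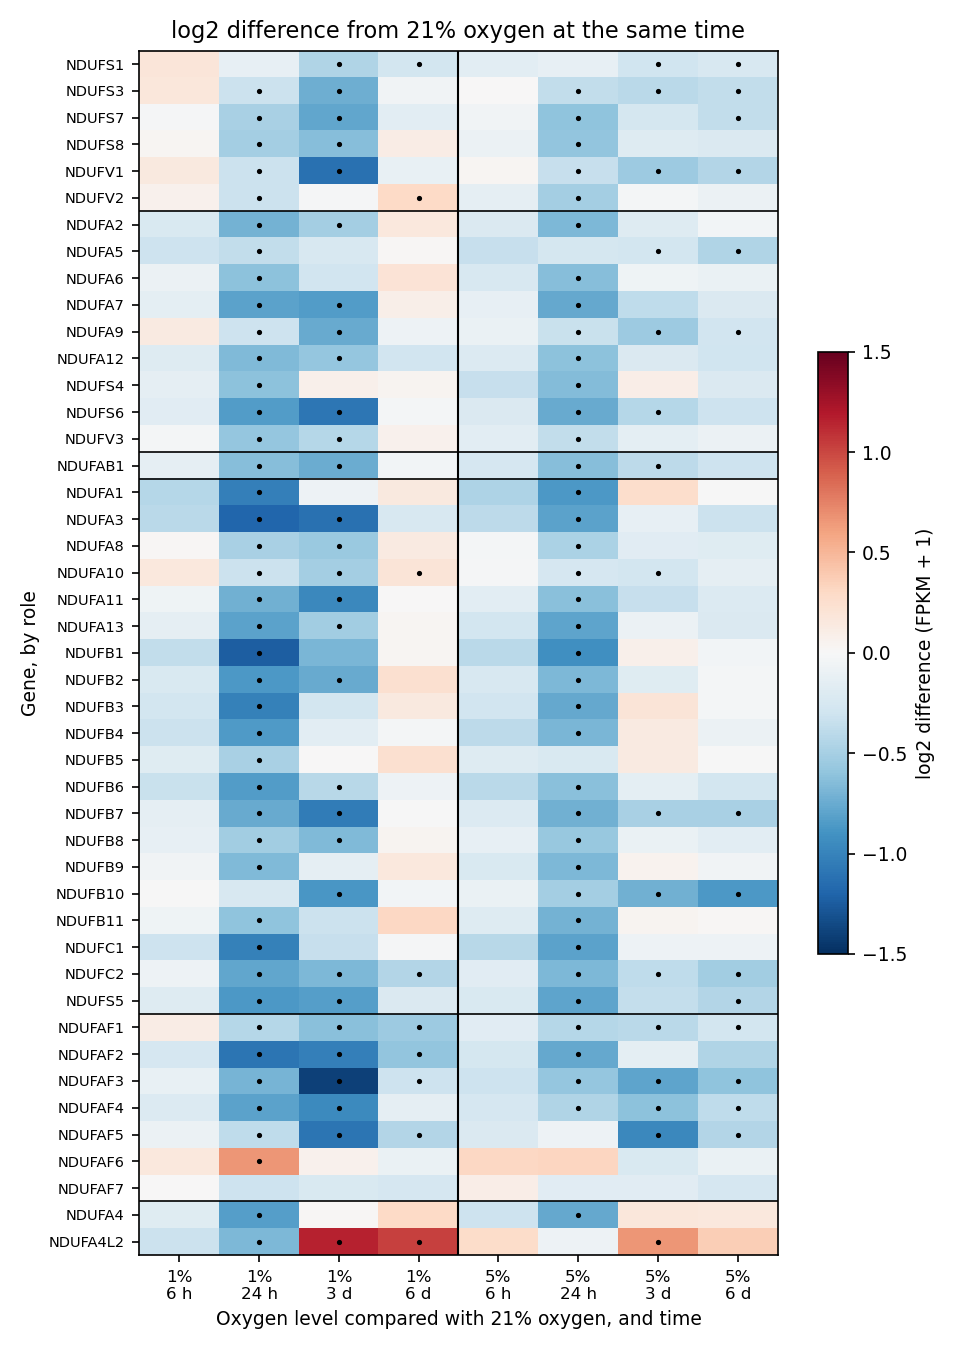
log2 difference from 21% oxygen at the same time for 45 of the 46 tested complex I genes (rows, grouped by role) in 1% and 5% oxygen at 6 h, 24 h, 3 d and 6 d (columns), with dots where the adjusted p is under 0.05. In 1% oxygen 42, 30 and 9 of these genes carry a dot at 24 h, 3 d and 6 d. At 24 h the signs of 8 genes with a dot in 1% oxygen and 6 in 5% oxygen turn with at least one other scaling.

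In 5% oxygen at 3 d fewer members passed. Of 46 members 16 fell (29.4% of all genes did) and NDUFA4L2 rose (15.7% of all genes), with a median of -0.19 against -0.10. Among genes at 100 FPKM and more 45.2% fell (median -0.19), against 9 of 35 members in that range (median -0.17). The share that fell was 4 of 7 core subunits, 3 of 9 and 4 of 20 accessory subunits, and 4 of 7 assembly factors. With a common FPKM total, which moved the median of all genes to -0.23, 27 fell and 1 rose (median -0.34), under quantile normalization 14 fell and 4 rose, and with the shallow library in the shared fit 7 fell. For 1% against 5% oxygen at 3 d, 30.8% of genes at 100 FPKM and more fell (median -0.20), against 12 of 35 members in that range (median -0.36). Of all 46 members 16 fell (10.4% of all genes did) and none rose (16.5% of all genes), with a median of -0.33 against 0.06. NDUFAF2 was at 102 and 81.9 FPKM in 1% oxygen and 136, 169 and 210 in 5% (log2 difference -0.88, SE 0.218, adjusted p = 0.00422). That count was 4 without replicate 1 of 1% oxygen, 9 without replicate 3 of 5% oxygen, 25 without replicate 3 of 21% oxygen at 24 h (which enters only the estimate of the spread), and 0 in a fit to the 5 libraries compared.

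By 6 d in 1% oxygen most subunits were near the level of the 21% controls. Of 46 members 6 fell (16.1% of all genes did) and 3 rose (13.8% of all genes), and the median was -0.01 against -0.03. Of the 6 that fell 4 were assembly factors: NDUFAF2 (-0.59, SE 0.195), NDUFAF1 (-0.55, SE 0.101), NDUFAF5 (-0.44, SE 0.142) and NDUFAF3 (-0.31, SE 0.116). The others were NDUFC2, a membrane-arm subunit (-0.44), and NDUFS1 (-0.27). NDUFC2 was at 157, 161 and 152 FPKM in 21% oxygen and 109, 108 and 131 in 1%, with no overlap. NDUFV2 (0.30, SE 0.0963, adjusted p = 0.0200) and NDUFA10, a subunit related to nucleoside kinases (0.19, adjusted p = 0.0445), rose. The count of 9 became 5 without replicate 3 of 21% oxygen or replicate 1 of 1% oxygen, 15 under quantile normalization (11 lower, 4 higher) and 3 with the shallow library in the shared fit.

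The change between 3 d and 6 d was tested directly. For 22 of 46 members the difference between 1% and 21% oxygen was higher at 6 d than at 3 d (20.2% of all genes), and for none was it lower (18% of all genes), with a median change of 0.58 against 0.00. The count was 18 to 26 over all the single-library omissions, 18 with the shallow library, 27 in a fit to the groups compared, and 20 to 24 under the other scalings. The 22 comprised 5 of 7 core subunits, 5 of 9 and 8 of 20 accessory subunits, NDUFAB1, and 3 of 7 assembly factors. NDUFV1 was at 163, 161 and 167 FPKM in 1% oxygen at 6 d and 170, 181 and 180.0 in 21% oxygen. Its level in 1% oxygen was thus above that at 3 d in every library, and its difference from the control changed by 1.01 (SE 0.125, adjusted p = 3.54e-07). NDUFAF3 changed by 1.08 (SE 0.173, adjusted p = 1.58e-05), from 21.8 and 25.3 FPKM at 3 d to 43.4, 42.6 and 47.2 at 6 d. Among genes at 100 FPKM and more the median change was 0.47, against 0.63 for the 35 members in that range. The difference was also higher at 6 d for 22 of 42 genes of complexes II to V and lower for 0 (median change 0.47). Of 76 genes of the mitochondrial ribosome 52 were higher and 1 lower (median change 0.62). Over all 4 times the difference varied for 40 of 46 members by limma's F test (63.3% of all genes), and for 36 without replicate 3 of 21% oxygen at 24 h. Erythroid markers moved over the same interval: the difference between 1% and 21% oxygen was higher at 6 d than at 3 d for 7 of the 10 (median change 0.98), and 8 of 10 were higher in 1% than in 21% oxygen at 6 d (median 1.47) and 6 of 10 at 3 d (median 0.43). Summed, the 10 were at 11480 to 11950 FPKM in 1% oxygen at 3 d and 36190 to 43440 at 6 d, against 5510 to 6198 and 5059 to 5427 in 21% oxygen, and none was at 0. Their part in the change of the complex I genes was not tested. Cells were passaged at 3 d, so time in low oxygen and time since passage cannot be told apart.

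**Figure D4:**
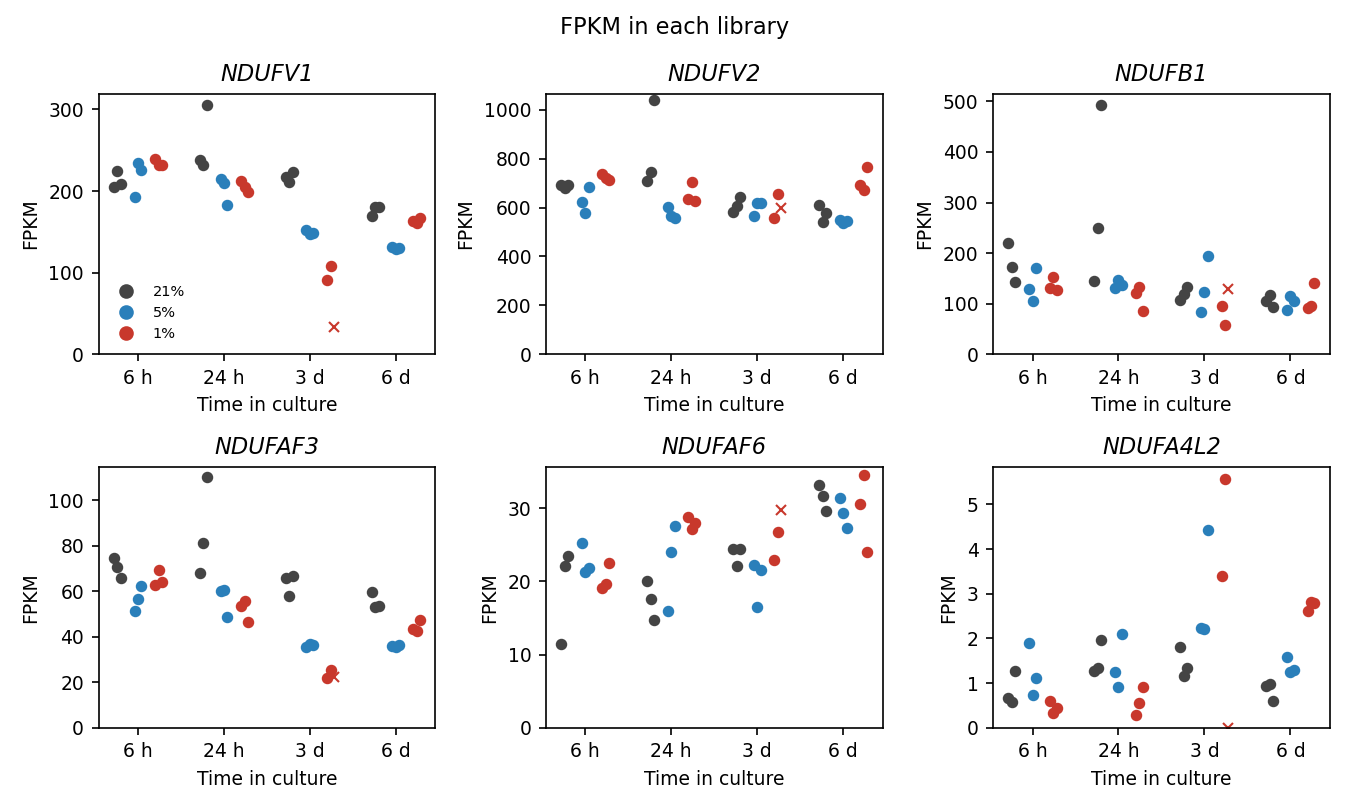
FPKM in each library for NDUFV1, NDUFV2, NDUFB1, NDUFAF3, NDUFAF6 and NDUFA4L2, by time and oxygen level (grey 21%, blue 5%, red 1%; the cross is the shallow library). NDUFV1 and NDUFAF3 in 1% oxygen are lowest at 3 d and higher again at 6 d, and NDUFA4L2 is above its control range in 1% oxygen at 6 d.

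In 5% oxygen at 6 d 15 of 46 members fell (21.7% of all genes did) and none rose (15.2% of all genes), with a median of -0.22 against -0.06. Among genes at 100 FPKM and more 36.2% fell (median -0.15), against 9 of 35 members in that range (median -0.22). The 15 held 5 of 7 core subunits and 4 of 7 assembly factors. NDUFB10, a membrane-arm subunit facing the intermembrane space, was at 280, 269 and 282 FPKM in 21% oxygen, 167, 147 and 144 in 5%, and 257, 245 and 312 in 1%. The 5% libraries lay below all others, while 1% and 21% oxygen overlapped. The log2 difference was -0.86 in 5% oxygen (SE 0.117, adjusted p = 1.3e-06) and -0.04 in 1% (adjusted p = 0.856). Directly compared, 1% exceeded 5% oxygen for 10 of 46 members at 6 d (16.1% of all genes) and was below it for 1, NDUFAF1 (11.4% of all genes), with a median of 0.21 against 0.04. NDUFB10 led this list (0.82, SE 0.117, adjusted p = 5.69e-06), followed by NDUFA4L2 (0.66). Among genes at 100 FPKM and more the median of 1% against 5% oxygen was 0.22, the same as that of the 35 members in that range. The 11 calls became 6 without replicate 2 of 5% oxygen or replicate 3 of 1% oxygen, and 7 without replicate 3 of 5% oxygen or replicate 2 of 1% oxygen. It was 2 with a common FPKM total (1 higher, 1 lower; the median of all genes moved to -0.11), and 2 with the shallow library in the shared fit. The 15 falls in 5% against 21% oxygen became 6 with a common FPKM total, 5 with the shallow library in the shared fit, and 26, with 1 rise, in a fit to the 6 libraries compared.

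NDUFA4L2 took a course of its own at a very low level. At 24 h it was at 1.27, 1.33 and 1.97 FPKM in 21% oxygen and 0.281, 0.567 and 0.909 in 1%, below the controls in every library (-0.68, SE 0.215, adjusted p = 0.0141; not past the threshold without replicate 3, -0.55). At 3 d it was at 1.81, 1.16 and 1.35 FPKM in 21% oxygen, 2.25, 2.22 and 4.42 in 5%, and 3.40 and 5.56 in 1%. Both reduced levels lay above the controls (log2 difference 1.15, SE 0.240, adjusted p = 0.000204 in 1%; 0.67, SE 0.215, adjusted p = 0.0127 in 5%). The shallow library listed it at 0, and with that library the 3 d difference was 0.34 and did not pass. At 6 d it was at 0.947, 0.986 and 0.593 FPKM in 21% oxygen and 2.62, 2.81 and 2.81 in 1%, with no overlap (1.03, SE 0.215, adjusted p = 0.000548). Differences this near the pseudocount of 1 are understated, and with a pseudocount of 0.1 the 6 d value was 1.62. Its abundant paralog NDUFA4 was at 188, 208 and 206 FPKM in 21% oxygen at 3 d and 205 and 201 in 1%, and did not pass (0.02, adjusted p = 0.940).

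Levels also differed over time in 21% oxygen alone. At 24 h against 6 h 0 of 46 members passed (2.43% of all genes), 24 had an unadjusted p under 0.05 (23.7% of all genes), and the median was 0.27. Without replicate 3 of 24 h it was 0.06; without replicate 1 of 24 h 35 members passed, and without replicate 2 of 24 h 4 did. At 3 d 8 of 46 were lower than at 6 h (6.23% of all genes) and none were higher (11.9%). At 6 d 21 of 46 were lower (11.8% of all genes) and 1 was higher (17.6%), with medians of -0.19 and -0.32. NDUFB2, a membrane-arm subunit, had the largest fall from 6 h to 6 d (-0.96, SE 0.185, adjusted p = 0.000314). NDUFAF6 was the one that rose, from 11.5, 22.1 and 23.5 FPKM to 33.2, 31.7 and 29.6, with no overlap (0.76, SE 0.185, adjusted p = 0.00286). The 3 d count was 3 without replicate 1 of 6 h or replicate 1 of 3 d, 5 without replicate 3 of 3 d, and 15 without replicate 3 of 24 h. The 6 d count was 8 or 12 without replicate 1 or 2 of 6 h, and 14 or 9 without replicate 2 or 3 of 6 d. The 4 times in 21% oxygen are the controls of the oxygen comparisons, so these differences share libraries with them.

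Of a list of 20 regulators of respiratory genes and related genes, 18 were tested. In 1% oxygen at 3 d 7 of them fell (28.6% of all genes did) and 4 rose (25.1% of all genes), with a median of -0.27. With a common FPKM total 4 fell and 4 rose (median -0.23), and under quantile normalization 10 fell and 4 rose (median -0.45). The mitochondrial transcription factors TFB1M (-1.33), TFB2M (-0.85) and TFAM (-0.55) were lower, as was NRF1 itself (-0.33), whose motif is shown in the NDUFA3 sequence above. EPAS1, which encodes HIF-2 alpha (2.55), and the mitophagy gene BNIP3 (1.88) were higher. BNIP3 also belongs to the hypoxia-induced genes used above to check the oxygen treatment. HIF1A did not pass (-0.18), and GABPA, an ETS-family activator of respiratory genes, rose (0.50). At 6 d 6 fell (16.1% of all genes did) and 3 rose (13.8% of all genes): TFB1M stood at -0.60, and NRF1 at 0.01 and not past the threshold.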

How the data were processed

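PolyA RNA of K562 cells was sequenced as paired 25-base reads. Per the labels and the submitters' processing notes, the authors made the deposited FPKM values with TopHat, cuffquant and Cuffnorm of the Cufflinks suite. No source used here gives the tool versions, the genome build or the annotation. Counts and absolute depth are therefore unknown, and no counting interval is given. A second deposited table of FPKM per transcript (41726 transcripts) was not tested and served only to choose the transcript whose length was used.

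Samples were grouped by their titles, and each FPKM value entered as log2(FPKM + 1). Genes with a mean of at least 1 FPKM over 35 libraries were fitted in one limma model (limma 3.58.1, R 4.3.3; a mean per group, trended prior, 23 residual degrees of freedom), with two-sided moderated tests of 17 comparisons and Benjamini-Hochberg adjustment over 10586 genes. Replicate 3 of 1% oxygen at 3 d was left out. The code was tested on simulated data. The members, gene lists and tests were chosen with earlier results of these data known. Named genes are the core subunits (the values of 1 are not reported here), NDUFAB1, NDUFA4, NDUFA4L2, the assembly factors, up to 5 of the largest called falls and rises in each comparison, and the members with the highest and lowest mean; other genes are from the lists, and NDUFB5, NDUFS4 and NDUFB10 at 24 h were chosen after their values were seen. Roles were assigned from general knowledge. Transcript lengths came from GENCODE v29 (89.9% of genes tested). Each is that of the gene's most abundant transcript in the second deposited table, matched by RefSeq identifier and then by gene symbol. Alternatives were a pseudocount of 0.1, no filter, the groups compared only, a replicate block, quantile normalization, a common FPKM total of each library (TPM), all 36 libraries, each library left out, and, added after the data were seen, a loess correction (span 0.5) for transcript length. Promoters were read from RefSeq on GRCh38.p14.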

Additional observations from a re-analysis of the deposited data

Results flagged for a closer look

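The difference between 1% and 21% oxygen at 6 d differed from that at 3 d, by limma's test of the interaction, for 22 of 46 complex I genes. All 22 were higher at 6 d (20.2% of all genes were higher and 18% lower). The 5 largest changes were those of NDUFAF3 (1.08), NDUFS6 (1.06), NDUFB7 (1.05), NDUFV1 (1.01) and NDUFB2 (0.99) on the log2 scale. For NDUFB2 the shallow library, at 399 FPKM, lay near its 3 d controls (380, 416 and 421), while the other libraries of 1% oxygen were at 238 and 242. The difference varied over the 4 times, by limma's F test, for 40 of 46 (63.3% of all genes), and for 36 without replicate 3 of 21% oxygen at 24 h.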

How the results depend on the processing

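Counts of members that passed are given for 46 members. Leaving out each library in turn gave 34 to 44 (main value 42) in 1% against 21% oxygen at 24 h, 29 to 33 (31) at 3 d and 5 to 11 (9) at 6 d. It gave 19 to 40 (39), 14 to 21 (17) and 10 to 19 (15) in 5% against 21% oxygen, and 0 to 1 (1), 0 to 1 (0), 4 to 25 (16) and 6 to 16 (11) in 1% against 5% oxygen at 6 h, 24 h, 3 d and 6 d. In 21% oxygen against 6 h it gave 0 to 35 (0), 3 to 15 (8) and 8 to 32 (22) at 24 h, 3 d and 6 d. Where a group was left with 1 library, its spread was taken from the other groups.

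With the groups compared only, the counts were 11 for 1% against 21% at 24 h, 0 and 27 for 5% against 21% at 24 h and 6 d, 0 for 1% against 5% at 6 h and at 3 d, and 16 for 3 d against 6 h. With all 36 libraries they were 3 for 1% against 21% at 6 d, 24, 7 and 5 for 5% against 21% at 24 h, 3 d and 6 d, 0, 31 and 2 for 1% against 5% at 6 h, 3 d and 6 d, and 3 and 6 for 3 d and 6 d against 6 h. With TPM they were 22 for 1% against 21% at 24 h, 14, 28 and 6 for 5% against 21% at 24 h, 3 d and 6 d, and 0, 9 and 2 for 1% against 5% at 6 h, 3 d and 6 d. With quantile normalization they were 15 for 1% against 21% at 6 d, 13 for 5% against 21% at 24 h, 0 and 4 for 1% against 5% at 6 h and 24 h, and 14 for 3 d against 6 h. With the length correction they were 18 for 5% against 21% at 24 h, 0 and 5 for 1% against 5% at 6 h and 24 h, and 1 for 24 h against 6 h. With no filter they were 5 and 14 for 3 d and 6 d against 6 h. The causes were not tested.

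Named values that turned sign were all at 24 h. In 1% against 21% oxygen they were NDUFV1 (0.05 with quantile normalization, 0.14 with TPM), NDUFV2 (0.19, 0.14, and 0.01 with the length correction), NDUFS3 (0.06, 0.14 and 0.01), and, with TPM, NDUFAF1 (0.02) and NDUFAF5 (0.04). In 5% against 21% oxygen they were NDUFV1 (0.01 with quantile normalization, 0.11 with TPM), and NDUFS3 (0.08) and NDUFAF1 (0.01) with TPM. Of 128 named values 51 no longer passed with all 36 libraries, 41 with the groups compared only, 41 with TPM, 24 with quantile normalization, 21 with the length correction, 9 with no filter, 2 with the replicate block and 1 with a pseudocount of 0.1; with quantile normalization 1 (NDUFV2) passed with the other sign.

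Libraries of the same replicate number did not deviate together (median correlation -0.002 over 187 pairs, -0.31 to 0.40; 0.003 for other pairs), so the numbers were not taken to pair them. With the replicate block the counts were 42, 31 and 8 for 1% against 21% at 24 h, 3 d and 6 d, and 38, 17 and 15 for 5% against 21%. The group of 2 libraries at 3 d in 1% oxygen, and unknown depth for genes near 1 FPKM such as NDUFA4L2, limit precision.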
